A study of Mus musculus with 8 samples.

Results

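The genes described here carry out fatty acid uptake and oxidation in the neonatal mouse heart. They are 41 genes chosen by name, grouped by the step they serve into uptake (4 genes), activation (5), the carnitine shuttle (6), mitochondrial β-oxidation (16), the peroxisome (4) and the control of lipid stores and of acyl-CoA (6). Each symbol was matched to the deposited loci, and all 41 were found, each at 1 locus, among 39614 loci that carry a gene symbol. RNA-seq was performed on whole hearts of 4 postnatal day 1 (P1) and 4 postnatal day 7 (P7) mice. Every mouse was a male of the outbred stock Hsd:ICR(CD-1), the labels name no treatment or engineered allele, and the atrial appendages had been cut off each heart. Each library came from 1 mouse with an identifier of its own, so p-values measure the spread between mice. Litters are not given in the labels.

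Fatty acids reach the heart muscle cell bound to albumin or are released from lipoproteins by lipoprotein lipase, cross the membrane with the help of carriers, and are joined to coenzyme A (CoA). Long-chain acyl-CoA enters the mitochondrion only as acyl-carnitine, and is then shortened in repeated cycles of oxidation, hydration, oxidation and thiolysis that feed electrons to the respiratory chain and yield acetyl-CoA. The heart depends on glucose and lactate before birth and turns to fatty acids as its main fuel in the days and weeks of suckling, when milk supplies fat. Peroxisomes shorten very long and branched chains by a separate set of enzymes.

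Expression is given as FPKM, a fragment number divided by the length of the transcript and by the size of the library, so levels may be compared between genes. The files used here hold no counts. The spacing of the lowest FPKM values, where neighbouring values differ by 1 fragment, gave an estimate of 1.33e+07 to 2.08e+07 fragments per heart. By that estimate the weakest value of a member, Ucp3 in P1 replicate 3, rested on about 31.1 fragments and the weakest of Ehhadh, in P1 replicate 2, on about 77.6. Markers of heart muscle were found in every heart. Summed over 8 genes, the cardiomyocyte markers lay between 12157 and 21700 FPKM in P1 and between 17607 and 29603 FPKM in P7. Summed over 5 genes, the atrial markers lay between 3901 and 5057 FPKM in P1 and between 3901 and 5291 FPKM in P7, although Nr2f1 among them lay at 0.973 to 3.01 FPKM. In these bulk samples fewer cells of a type and less RNA per cell cannot be told apart.

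Of the 41 genes, 9 were differentially expressed, all of them higher in P7. They were the transporter Slc27a1, the acyl-CoA synthetase Acsf2, the β-oxidation enzymes Acads and Eci1, the lipid droplet genes Plin5 and Pnpla2, the malonyl-CoA decarboxylase Mlycd, the uncoupling protein Ucp3 and the thioesterase Acot2. A gene was called differentially expressed when the limma test on log2(FPKM + 1) gave a Benjamini-Hochberg adjusted p under 0.05 over the 43172 loci tested and the mean FPKM differed at least 1.5-fold. The 9 genes make up 22.0% of the members, whereas 7.74% of the 17960 annotated loci tested were called higher in P7. No member was called lower in P7, against 0.401% of annotated loci, although 17 members had an unadjusted limma p under 0.05 in either direction, 2 of them negative, a level that 29.7% of annotated loci passed.

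Of the 41 members, 16 had a mean FPKM at least 1.5-fold higher in P7, the 9 called among them. The log2 fold change was positive in 35 members and negative in 6, and its median was 0.36, against 67.6% positive and a median of 0.19 over all annotated loci. In 13 members every P7 heart lay above every P1 heart, which is 31.7% of members against 17.3% of annotated loci. In another 2, Acsl3 and Acsl4, every P7 heart lay below every P1 heart, a pattern held by 2.69% of annotated loci. The level of a whole heart bears on these directions: scaling the hearts by their median ratio shifted the median over all annotated loci from 0.19 to 0.00, after which 26 members were positive, 8 were called higher and 2 (Acsl3 and Acsl4) were called lower. Over annotated loci the same scaling gave 1388 higher (7.76%) and 621 lower calls (3.47%), in place of 1390 and 72.

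**Figure D1:**
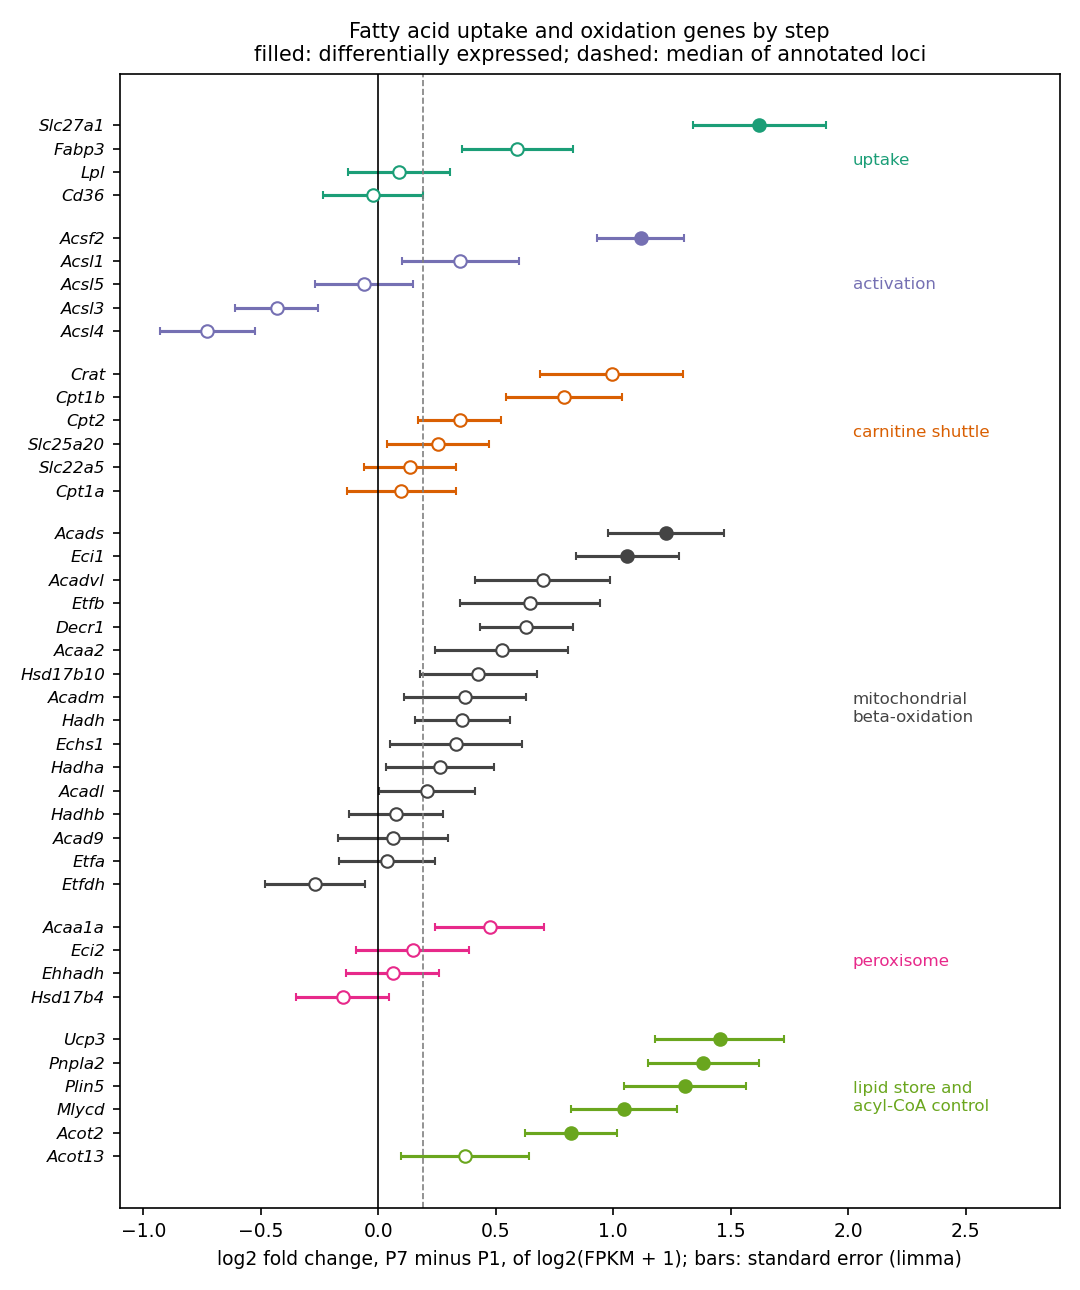
Log2 fold change (P7 minus P1, on the log2(FPKM + 1) scale, horizontal axis) of each of the 41 genes, grouped by step, with its standard error from limma. Filled points are the 9 differentially expressed genes, 5 of which belong to the lipid store and acyl-CoA group, and the dashed line is the median of annotated loci, 0.19, which median-ratio scaling moves to 0.00.

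Levels ranged over 3 orders of magnitude. Fabp3 alone, which encodes the heart fatty acid-binding protein, held 40.3% of the members' summed mean FPKM in P1 and 44.9% in P7. The next were Cd36 (6.58% and 4.79%), Acadl (4.71% and 4.00%) and Acot13 (4.14% and 3.88%), the ranks of all 4 being the same at both stages. The weakest member was Ucp3 in P1 and Ehhadh in P7. The differentially expressed genes were mostly weak ones: of the 9, only Eci1 exceeded 100 FPKM at P7, and 7 lay below 50 FPKM.

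**Figure D2:**
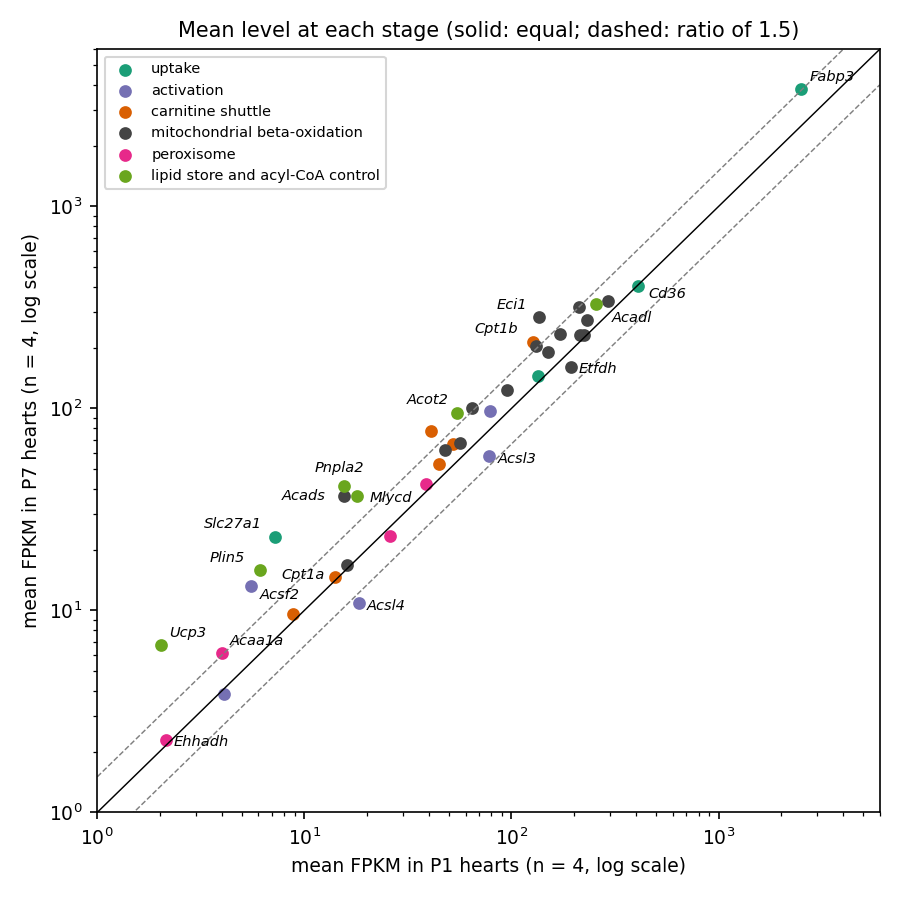
Mean FPKM of each of the 41 genes in P1 hearts (horizontal, log scale) and P7 hearts (vertical, log scale), coloured by step. Points above the upper dashed line were at least 1.5-fold higher in P7, and Fabp3 stands apart at the top right with 2498 FPKM in P1 and 3799 FPKM in P7.

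Among the 4 uptake genes, only the least abundant was differentially expressed. Slc27a1 encodes fatty acid transport protein 1, a membrane protein that takes up long-chain fatty acids and has acyl-CoA synthetase activity. It lies on chromosome 8 (71568882 to 71587302, plus strand; GENCODE coordinates on GRCm38 here and below). Its FPKM was 7.44, 5.68, 3.89 and 11.9 in P1 replicates 1 to 4 and 26.9, 23.8, 26.2 and 16.0 in P7 replicates 1 to 4. The lowest P7 heart lay above the highest P1 heart. P7 exceeded P1 by 1.62 on the log2 scale (± 0.28, standard error (SE), limma adjusted p = 0.0141), the largest of the 41 genes on that scale, while Ucp3 had the larger ratio of mean FPKM (3.32 against 3.21). Slc27a1 was called in each alternative treatment of the data except when P1 replicate 2 was left out, where 0.874% of annotated loci were called higher.

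Cd36, the main long-chain fatty acid carrier of the heart muscle membrane, was nearly equal at both ages. Its FPKM was 389, 388, 372 and 481 in P1 and 494, 319.5, 449.8 and 358 in P7. The P7 hearts lay on both sides of the P1 hearts. The log2 fold change was -0.02 with a 95% interval of -0.49 to 0.44 (limma adjusted p = 0.956). In the main fit this interval excludes a 1.5-fold difference in either direction, and intervals under the alternatives are not given here. The log2 fold change was -0.27 under median-ratio scaling and 0.26 under GC correction. Its sign turned under GC correction and in 6 other alternatives.

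Fabp3, which carries fatty acids through the cytosol, was the most abundant member. Its FPKM was 2714, 2457, 2257 and 2562 in P1 and 3499.8, 3256, 4816 and 3623 in P7. The stages did not overlap, yet the difference did not pass the test over all loci (log2 fold change 0.59, ± 0.24 SE, limma adjusted p = 0.204). Lpl, the lipase that frees fatty acids from circulating triglyceride, ranged from 113 to 158 FPKM in P1 and from 106 to 179.9 FPKM in P7. Its log2 fold change was 0.09 (95% interval -0.38 to 0.56), and its sign turned with median-ratio scaling (-0.15) and quantile normalization (-0.11).

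The 5 genes of fatty acid activation went in different directions. Acsf2, an acyl-CoA synthetase of the mitochondrion, was differentially expressed (chromosome 11, 94557102 to 94601871, minus strand). Its FPKM was 6.87, 5.37, 4.45 and 5.53 in P1 and 14.3, 14.6, 12.3 and 11.3 in P7. The stages did not overlap, and the hearts of each stage lay close together. This was a log2 fold change of 1.12 (± 0.18 SE, limma adjusted p = 0.0112).

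The long-chain acyl-CoA synthetases Acsl3 and Acsl4 stood apart from the other members. Acsl3, which acts at the endoplasmic reticulum and on forming lipid droplets, measured 71.3, 79.5, 78.7 and 83.4 FPKM in P1 and 66.8, 50.8, 57.1 and 56.9 FPKM in P7. Acsl4, which prefers arachidonic acid, measured 18.1, 17.0, 16.6 and 21.5 FPKM in P1 and 10.7, 7.75, 14.2 and 10.6 FPKM in P7. In both genes every P7 heart lay below every P1 heart. The log2 fold change was -0.43 for Acsl3 (± 0.18 SE, limma adjusted p = 0.212) and -0.73 for Acsl4 (± 0.20 SE, limma adjusted p = 0.0689), so neither was called. Under median-ratio scaling and quantile normalization both passed the test. After GC correction both log2 fold changes were still negative but smaller in size, and neither gene was called. The longest transcripts of Acsl3 and Acsl4 hold 43.4% and 39.0% G or C. The Acsl3 locus is joined to Utp14b in the files, so its value may include fragments of that gene.

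Acsl1, the main acyl-CoA synthetase of the heart, measured 76.4, 68.3, 51.8 and 119.6 FPKM in P1 and 101, 79.7, 111 and 96.0 FPKM in P7. P1 replicate 4 was above every P7 heart, while the other 3 P1 hearts were below them all. In log2 terms the difference was 0.35 (± 0.25 SE, limma adjusted p = 0.438). Acsl5 was low at both ages, between 3.03 and 5.70 FPKM over the 8 hearts, with a log2 fold change of -0.06 whose sign turned in 6 alternatives.

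None of the 6 genes of the carnitine shuttle was differentially expressed, though all 6 log2 fold changes were positive, at 0.10 to 0.99. With median-ratio scaling or quantile normalization those of Cpt1a and Slc22a5 turned negative, and with quantile normalization that of Slc25a20 too. Cpt1b, the muscle form of carnitine palmitoyltransferase 1, which forms acyl-carnitine at the outer membrane, was the most abundant of them. Its FPKM was 134, 108, 84.7 and 181 in P1 and 206, 188, 269.7 and 193 in P7. The stages did not overlap, the closest hearts being P1 replicate 4 and P7 replicate 2. By limma, the stages differed by 0.79 in log2 (± 0.25 SE, adjusted p = 0.104). The Cpt1b locus is joined to its neighbour Chkb, a choline kinase, and the value cannot be divided between them.

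Crat, the carnitine acetyltransferase that buffers acetyl-CoA, had the largest difference of this step. Its FPKM was 38.5, 34.2, 21.5 and 69.4 in P1 and 68.3, 59.8, 101 and 79.6 in P7. P1 replicate 4 lay above 2 of the P7 hearts. P7 exceeded P1 by 0.99 on the log2 scale (± 0.30 SE, limma adjusted p = 0.0986). Crat, Cpt1b and Decr1 were all called higher when P1 replicate 4 was left out (15.4% of annotated loci), with a filter that asks for 1 FPKM in every heart (19.0% higher and 1.17% lower among the annotated loci it leaves), and with sample quality weights.

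Cpt1a, the form of liver and fetal tissues, had the smallest difference of the step, with 14.6, 10.7, 10.1 and 21.1 FPKM in P1 and 17.5, 13.7, 14.8 and 12.6 FPKM in P7. All P7 hearts lay within the P1 range. Cpt2, which turns acyl-carnitine back into acyl-CoA in the matrix, ranged from 45.9 to 56.1 FPKM in P1 and from 57.8 to 77.2 FPKM in P7, with no overlap, and did not pass the test (log2 fold change 0.35, limma adjusted p = 0.319). The carnitine-acylcarnitine exchanger Slc25a20 and the plasma membrane carnitine carrier Slc22a5 overlapped between stages, with log2 fold changes of 0.25 and 0.14. The 4 P7 values of Slc22a5 were almost the same, from 9.44 to 9.70 FPKM, whereas the P1 values ran from 6.40 to 11.9 FPKM.

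Of the 16 genes of mitochondrial β-oxidation, 2 were differentially expressed. Acads, the acyl-CoA dehydrogenase of short chains, lies on chromosome 5 (115110299 to 115119346, minus strand), and its locus is joined to the gene model Gm13826. Its FPKM was 18.9, 12.8, 9.88 and 20.4 in P1 and 37.2, 29.6, 47.7 and 32.7 in P7. No P1 heart reached the lowest P7 heart. This was a log2 fold change of 1.22 (± 0.25 SE, limma adjusted p = 0.0217).

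Eci1, the isomerase that moves the double bond of unsaturated chains so that the cycle can go on, was the most abundant of the 9 called genes (chromosome 17, 24426641 to 24439348, plus strand). Its FPKM was 137, 129.5, 105 and 169.7 in P1 and 289, 245, 359 and 240.4 in P7. The gap between stages was wider than the spread within P1. In log2 terms the difference was 1.06 (± 0.22 SE, limma adjusted p = 0.0231). Decr1, the dienoyl-CoA reductase that also serves unsaturated chains, ranged from 53.3 to 76.1 FPKM in P1 and from 88.8 to 126 FPKM in P7. Its hearts did not overlap, but the adjusted p was 0.104 (limma, log2 fold change 0.63, standard error 0.20).

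The acyl-CoA dehydrogenases act on chains of different length, and the differences between these genes were not tested. Acads, for short chains, had a log2 fold change of 1.22. Acadvl, for very long chains, had 0.70 (± 0.29 SE, limma adjusted p = 0.217). Acadm, for medium chains, had 0.37 (± 0.26 SE) and Acadl, for long chains, had 0.21 (± 0.20 SE), of which the latter turned to -0.03 under median-ratio scaling. Acadl was the most abundant of the step and measured 277, 318, 247 and 325 FPKM in P1 and 335, 281, 414 and 324 FPKM in P7. The stages overlapped. Acad9, which is also an assembly factor of complex I, stood at 16.2 FPKM in P1 and 16.8 FPKM in P7 on average.

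The trifunctional protein, which carries out the last 3 reactions on long chains, is made of an α subunit (Hadha) and a β subunit (Hadhb). Both genes were high and overlapped between stages. Hadha measured 223, 233, 161 and 309 FPKM in P1 and 283, 235, 321 and 251 FPKM in P7 (log2 fold change 0.26, limma adjusted p = 0.510). The span of Hadha also holds Garem2, which has no locus of its own. The Hadha value, and with it the Hadha ratios given below, may include fragments of Garem2. Hadhb measured 213, 205, 208 and 235 FPKM in P1 and 223, 184, 293 and 219 FPKM in P7 (log2 fold change 0.07, limma adjusted p = 0.834). P1 replicates 3 and 4 stood far apart in Hadha and close together in Hadhb. The genes lie head to head on chromosome 5, with Hadha on the minus and Hadhb on the plus strand, and share the stretch between their starts, which is shown because a single interval of 85 bases borders both subunits. It is given on the plus strand of GRCm38.p6 (from RefSeq, chr5:30155163-30155247), with the 9 CpG dinucleotides in capitals, and 69.4% of its bases are G or C.
Hadha-Hadhb: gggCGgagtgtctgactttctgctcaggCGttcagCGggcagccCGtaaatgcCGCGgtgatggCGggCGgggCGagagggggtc

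None of the 3 electron transfer genes passed the test. Etfa and Etfb, the subunits of the electron transfer flavoprotein that accepts electrons from the dehydrogenases, had log2 fold changes of 0.04 (95% interval -0.41 to 0.48) and 0.65 (95% interval 0.00 to 1.29). Etfdh, which passes these electrons to ubiquinone, had the only negative log2 fold change of the step, -0.27 (± 0.21 SE, limma adjusted p = 0.473). It measured 177, 193, 162 and 239.9 FPKM in P1 and 162, 123, 194 and 162 FPKM in P7. The hearts of the 2 stages overlapped, with P1 replicate 4 highest and P7 replicate 2 lowest. The remaining genes were Echs1 (enoyl-CoA hydratase), Hadh (hydroxyacyl-CoA dehydrogenase of medium and short chains), Hsd17b10 (hydroxyacyl-CoA dehydrogenase of branched chains) and Acaa2 (the matrix thiolase). Their log2 fold changes lay between 0.33 and 0.53, and none passed the test.

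The 4 peroxisomal genes showed small differences, and none of them was differentially expressed or free of overlap. Acaa1a, the peroxisomal thiolase, had the largest difference, at a locus of 224343 bases that also holds other coding genes such as Oxsr1 and Xylb. Its FPKM was 4.60, 3.23, 4.04 and 4.10 in P1 and 4.77, 3.92, 8.86 and 7.09 in P7. Of the P7 hearts 3 stood above all P1 hearts and replicate 2 lay among them (log2 fold change 0.47, ± 0.23 SE, limma adjusted p = 0.295). Eci2, the most abundant, measured 40.2, 33.4, 26.4 and 54.7 FPKM in P1 and 47.0, 33.9, 51.7 and 35.7 FPKM in P7. Hsd17b4, the peroxisomal bifunctional enzyme, measured 24.6, 23.8, 22.3 and 33.4 FPKM in P1 and 23.7, 19.2, 28.6 and 21.9 FPKM in P7, with a log2 fold change of -0.15. Ehhadh, the second bifunctional enzyme, stayed between 1.61 and 2.92 FPKM in all 8 hearts.

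The genes that control lipid stores and acyl-CoA differed most. Of these 6, 5 were differentially expressed and the median log2 fold change was 1.18, which is 0.98 above that of annotated loci. After GC correction 1 of the 6, Ucp3, was called. The same difference from annotated loci was 0.17 for mitochondrial β-oxidation, 0.15 for uptake, 0.11 for the carnitine shuttle, -0.09 for the peroxisome and -0.25 for activation. Because whole-heart scaling moves all of these medians together, the differences rather than the medians are compared, and no test was made of the order of the steps. Among further genes of the same pathways, the median log2 fold change was 0.48 for 17 peroxisomal genes and 0.31 for 4 of mitochondrial β-oxidation. The order of these steps thus depends on the genes listed.

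Pnpla2 encodes adipose triglyceride lipase, which starts the breakdown of stored triglyceride (chromosome 7, 141455198 to 141460743, plus strand). Its FPKM was 16.6, 16.0, 9.22 and 20.4 in P1 and 48.0, 44.8, 38.5 and 33.3 in P7. All P7 hearts were above all P1 hearts. By limma, the stages differed by 1.38 in log2 (± 0.24 SE, adjusted p = 0.0133), and it was the single member still called when P1 replicate 2 was left out. It was not called after GC correction (limma adjusted p = 0.0515, the highest over its alternatives, the lowest being 0.00154).

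Plin5, the perilipin that couples lipid droplets to mitochondria and restrains the lipase, lies on chromosome 17 (56111601 to 56117596, minus strand). Its FPKM was 7.13, 4.82, 3.34 and 9.14 in P1 and 13.0, 16.1, 19.8 and 14.6 in P7. The stages did not overlap. P7 exceeded P1 by 1.31 on the log2 scale (± 0.26 SE, limma adjusted p = 0.0206).

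Ucp3, the muscle form of the mitochondrial uncoupling proteins, was the weakest member in P1 (chromosome 7, 100472990 to 100486432, plus strand). Its FPKM was 1.91, 1.42, 0.769 and 3.99 in P1 and 6.41, 6.78, 5.86 and 7.82 in P7. The P1 hearts varied among themselves more than those of any other member (coefficient of variation 68.8%), and still the highest of them lay below the lowest P7 heart. This was a log2 fold change of 1.45 (± 0.27 SE, limma adjusted p = 0.0185), and the mean FPKM differed 3.32-fold.

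Mlycd breaks down malonyl-CoA, the inhibitor of carnitine palmitoyltransferase 1 (chromosome 8, 119394878 to 119411102, plus strand). Its FPKM was 25.4, 16.1, 11.8 and 18.6 in P1 and 37.4, 40.2, 40.2 and 30.5 in P7. Again no P1 heart reached the lowest P7 heart. In log2 terms the difference was 1.05 (± 0.23 SE, limma adjusted p = 0.0280).

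Acot2, a matrix thioesterase that frees long-chain fatty acids from CoA, lies on chromosome 12 (83987861 to 83993873, plus strand), and its locus is joined to its paralogue Acot5. Its FPKM was 68.6, 47.8, 42.1 and 59.2 in P1 and 101, 91.4, 96.5 and 91.8 in P7. The P7 hearts were close to one another and above all P1 hearts. By limma, the stages differed by 0.82 in log2 (± 0.20 SE, adjusted p = 0.0393), and it was the least stable of the 9 calls. Acot13, a thioesterase found at mitochondria, was the member of this group that was not called. Its FPKM was 213, 210.4, 206 and 396 in P1 and 268, 265, 477 and 303 in P7. P1 replicate 4 was above all P7 hearts but 1, and the other P1 hearts were below them all.

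**Figure D3:**
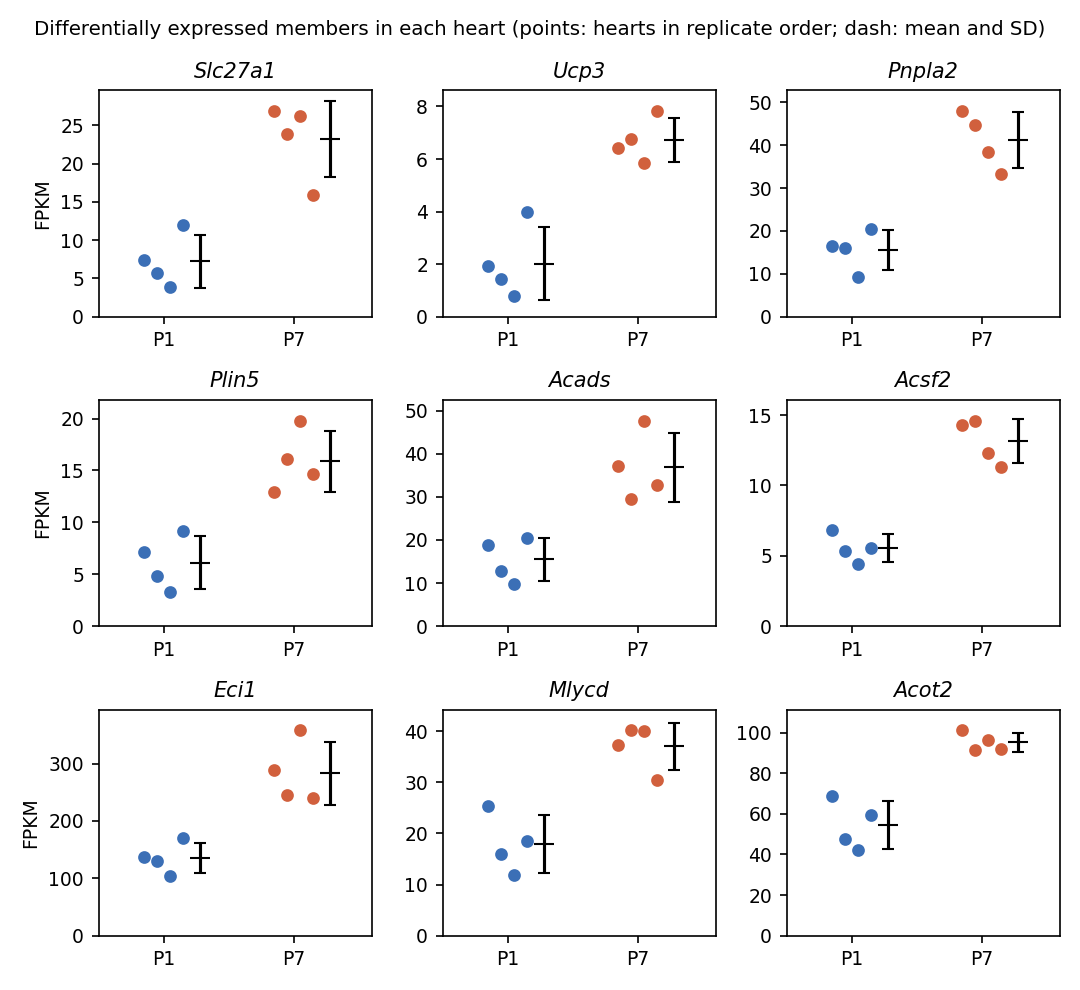
FPKM of the 9 differentially expressed genes in each heart (points, in the order of the replicate numbers) with the mean and SD of each stage (dash and bar, n = 4). In every panel the lowest P7 heart lies above the highest P1 heart, from Slc27a1 (7.23 against 23.2 FPKM on average) to Acot2 (54.4 against 95.3 FPKM).

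The stretches before the starts of Pnpla2 and Ucp3 are shown because these were the called genes of the group with the highest fold changes and with 1 start each in the RefSeq promoter table. They are the 200 bases upstream of the start on the gene's own strand of GRCm38.p6, with CpG dinucleotides in capitals. That of Pnpla2 (chr7:141454988-141455187, plus strand) holds 12 CpG and 66.0% G or C, and that of Ucp3 (chr7:100472791-100472990, plus strand) holds 3 CpG and 55.0% G or C. The median over all 32851 starts in the table was 5 CpG (quartiles 2 and 13), and over the 37 starts of members it was 11 (quartiles 9 and 14). Pnpla2 thus lay within the members' quartiles and Ucp3 below them.
Pnpla2: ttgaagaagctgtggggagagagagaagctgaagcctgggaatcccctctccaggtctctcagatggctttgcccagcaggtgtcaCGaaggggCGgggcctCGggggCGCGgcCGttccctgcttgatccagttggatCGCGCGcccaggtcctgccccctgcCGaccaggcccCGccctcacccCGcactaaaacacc
Ucp3: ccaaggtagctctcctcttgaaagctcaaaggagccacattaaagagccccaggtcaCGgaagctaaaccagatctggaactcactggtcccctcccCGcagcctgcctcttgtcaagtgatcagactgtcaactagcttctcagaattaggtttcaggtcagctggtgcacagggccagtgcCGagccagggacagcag

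RefSeq starts were found for 33 of the 41 members, and the table has none for Lpl, Cpt1b, Crat, Acad9, Acaa2, Decr1, Hsd17b4 or Acot13. The windows of 250 bases before to 50 bases after each start were searched on both strands for 3 exact words. TCAAGGTCA, a half-site of estrogen-related receptors, was in none of the members' 37 windows and in 0.423% of all windows. AGGTCANAGGTCA, a direct repeat of the kind bound by PPAR, was likewise in none and in 0.0396% of all windows. GCGCATGCGC, the palindrome of NRF1, was in 1 member window, that of Etfdh, and in 0.971% of all windows. Its surroundings are printed on the minus strand (chr3:79628866-79628915), with the palindrome in capitals, which begins at base -128 from the start. GENCODE places this stretch inside the first exon of a retained-intron transcript of Etfdh. Etfdh was the β-oxidation gene with the negative log2 fold change described above, and the words are letter matches and not binding sites.
Etfdh: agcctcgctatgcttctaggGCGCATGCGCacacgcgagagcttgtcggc

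Hearts of the same age differed from one another in most members at once. P1 replicate 4 was the highest P1 heart in 34 of the 41 members and P1 replicate 3 the lowest in 38. Among P7 hearts, replicate 3 was the highest in 31 members and replicate 2 the lowest in 31. Over all annotated loci the same hearts were the highest or lowest in 64.4%, 53.3%, 51.1% and 53.9%, in that order. P1 replicate 4 exceeded the lowest P7 heart in 28 members. After median-ratio scaling, P1 replicate 4 was the highest P1 heart in 19 members and P1 replicate 3 the lowest in 21, while P7 replicate 3 was the highest in 24 and P7 replicate 2 the lowest in 11. The cardiomyocyte markers had the same order: P1 replicate 3 was lowest and P1 replicate 4 highest of the P1 hearts, and P7 replicate 2 lowest and P7 replicate 3 highest of the P7 hearts. The part of these whole-heart differences in the comparisons was not tested.

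The hearts of the 2 ages overlapped in 4 of the 6 steps. The mean log2 level of the lipid store and acyl-CoA genes, taken relative to the 8 hearts, was -0.34, -0.67, -1.04 and -0.07 in P1 and 0.50, 0.53, 0.66 and 0.44 in P7. In these genes the ages were separate, and in uptake they were just separate, with P1 hearts at -0.58 to 0.03 and P7 hearts at 0.06 to 0.55. For mitochondrial β-oxidation it was -0.18, -0.25, -0.62 and 0.23 in P1 and 0.22, -0.10, 0.56 and 0.16 in P7. Here P1 replicate 4 lay above 3 of the P7 hearts. For the peroxisome it was 0.00, -0.22, -0.30 and 0.24 in P1 and 0.07, -0.26, 0.41 and 0.04 in P7, so that the ages were mixed.

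**Figure D4:**
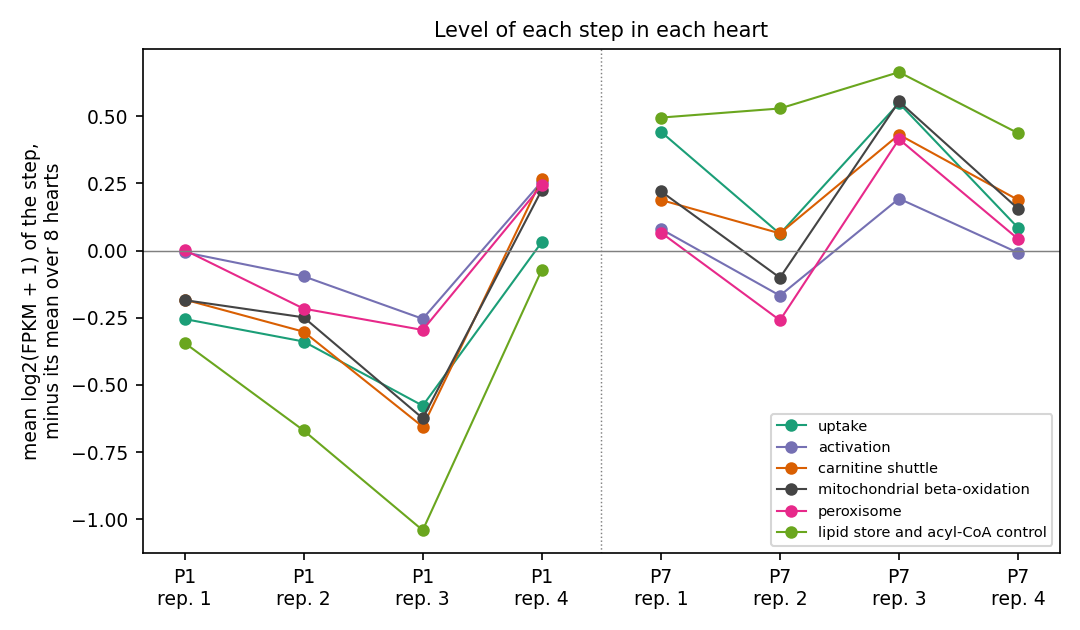
Mean log2(FPKM + 1) of the genes of each step in each heart, minus the mean of that step over the 8 hearts (vertical axis), with P1 hearts on the left and P7 hearts on the right and lines joining the hearts of 1 stage in label order only. The lipid store and acyl-CoA genes lie between -1.04 and -0.07 in P1 and between 0.44 and 0.66 in P7, whereas in the other steps P1 replicate 4 reaches the P7 hearts or comes close to them.

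Ratios of 2 members within a heart do not depend on the scale of that heart, apart from the pseudocount. The 6 ratios were compared with a two-sided exact permutation test over the 70 assignments of hearts to stages. The smallest p this design allows is 0.0286. Because the ratios were chosen with earlier results of these data known, their p-values are no independent support for a difference. The ratio of Cpt1b to Cpt1a was 8.64, 9.34, 7.73 and 8.25 in P1 and 11.2, 12.8, 17.2 and 14.2 in P7. No P1 heart reached a P7 heart, and the log2 ratio was 0.69 higher in P7 (exact permutation p = 0.0286, adjusted over the 6 ratios 0.0429). The Cpt1b value carries the reads of Chkb, and the Cpt1a locus is joined to Mtl5.

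The ratio of Acsl1 to Acsl4 was 4.05, 3.85, 3.00 and 5.36 in P1 and 8.76, 9.21, 7.38 and 8.33 in P7. That of Acsl1 to Acsl3 was 1.07, 0.861, 0.662 and 1.43 in P1 and 1.51, 1.56, 1.93 and 1.68 in P7. Neither ratio overlapped between stages. The log2 ratios were 1.08 and 0.78 higher in P7 (exact permutation p = 0.0286 and adjusted p = 0.0429 for each). None of the 3 genes was called alone. The ratio of mitochondrial Hadha to peroxisomal Hsd17b4 ran from 6.92 to 9.41 in P1 and from 10.9 to 11.7 in P7, a log2 difference of 0.41 (exact permutation p = 0.0286, adjusted p = 0.0429). Fragments of Garem2 may be part of the Hadha value.

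The subunit ratios did not pass. Hadha to Hadhb was 1.04, 1.13, 0.774 and 1.32 in P1 and 1.27, 1.28, 1.09 and 1.15 in P7 (log2 difference 0.19, exact permutation p = 0.343). Etfa to Etfb was 1.02, 1.34, 1.62 and 0.698 in P1 and 0.824, 0.770, 0.673 and 0.674 in P7. Only P1 replicate 4 of the P1 hearts fell among the P7 hearts (log2 difference -0.61, exact permutation p = 0.0857, adjusted p = 0.103). In both ratios P1 replicates 3 and 4 held the ends of the P1 range. After GC correction the ratio of Hadha to Hadhb turned to -0.15 and that of Etfa to Etfb shrank to -0.05. G and C made up 51.3% of the longest transcript of Hadha against 39.1% in Hadhb, and 45.0% in Etfa against 57.1% in Etfb.

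**Figure D5:**
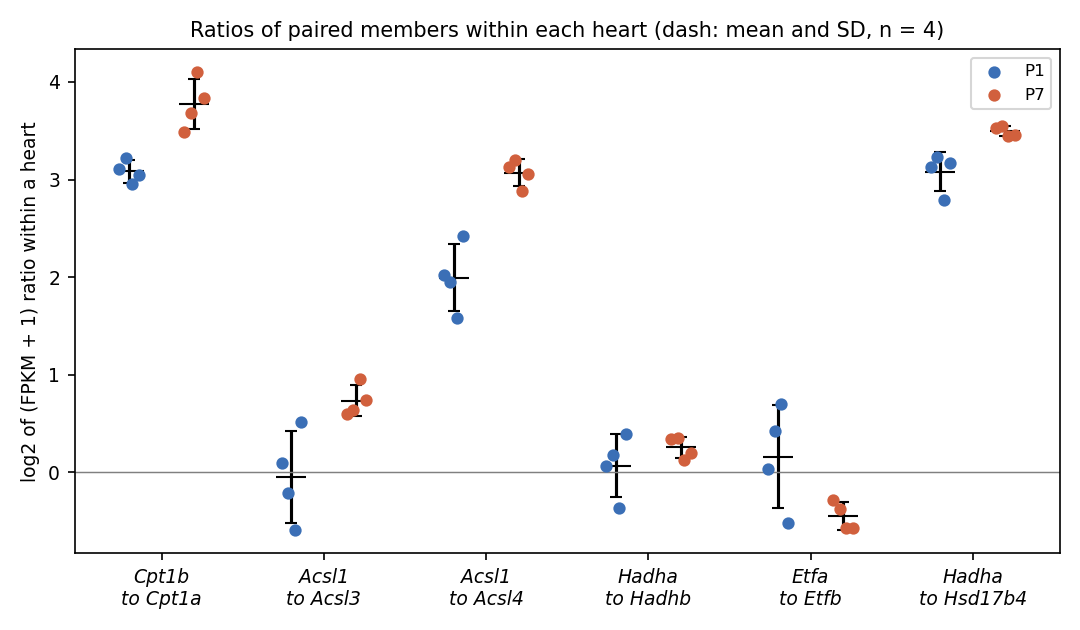
Log2 of the ratio of (FPKM + 1) values of 6 gene pairs within each heart (points), with the mean and SD of each stage (n = 4). The ratios of Cpt1b to Cpt1a, Acsl1 to Acsl3, Acsl1 to Acsl4 and Hadha to Hsd17b4 do not overlap between P1 and P7, and the other 2 do.

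Further genes of the same pathways were read from the same test. Of 57 listed, 49 were tested, 8 were called higher and 0 lower in P7, which is 16.3% higher against 7.74% of annotated loci, with a median log2 fold change of 0.57 against 0.19. Of the 8, 6 were among the 18 genes of lipid stores and acyl-CoA control. Mgll, the monoglyceride lipase that ends triglyceride breakdown, measured 17.2, 12.0, 8.85 and 23.0 FPKM in P1 and 37.7, 34.2, 48.5 and 40.5 FPKM in P7 (log2 fold change 1.41, limma adjusted p = 0.0171). Ucp2, a broadly expressed uncoupling protein, measured 30.1, 26.8, 22.8 and 25.3 FPKM in P1 and 70.2, 67.5, 78.7 and 58.6 FPKM in P7 (log2 fold change 1.36, limma adjusted p = 0.00553). In both genes the ages were far apart.

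Pdk4, the kinase that switches off pyruvate dehydrogenase when fatty acids are burned, measured 40.9, 34.3, 27.5 and 55.8 FPKM in P1 and 124, 111, 58.8 and 94.2 FPKM in P7. Its P7 replicate 3, the highest P7 heart in most members, was here the lowest and close to P1 replicate 4. P7 exceeded P1 by 1.26 on the log2 scale (± 0.27 SE, limma adjusted p = 0.0271). The lipid droplet coat Plin3, the hormone-sensitive lipase Lipe and the glycerol-3-phosphate acyltransferase Gpam were called too, with log2 fold changes of 1.28, 1.12 and 0.83.

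Outside that group, Gpihbp1, which holds lipoprotein lipase on the capillary wall, measured 25.6, 20.5, 19.4 and 30.5 FPKM in P1 and 57.7, 46.1, 71.9 and 43.7 FPKM in P7 (log2 fold change 1.15, limma adjusted p = 0.0188). The ages of Gpihbp1 did not overlap, while those of the lipase Lpl itself did. Gpihbp1 is made by endothelial cells, whose 6 markers summed to 91.0 to 153 FPKM in P1 and 124 to 189 FPKM in P7. Of these markers 2 were called higher, against 7.74% of annotated loci. Emcn went the other way, at 27.4 to 32.6 FPKM in P1 and 17.1 to 26.6 FPKM in P7. Tek was at 15.2 and 15.5 FPKM on average. The part of endothelial cells in the Gpihbp1 difference was not tested. The other called gene was Cpt1c, the brain form of the transferase, at 1.02 and 2.42 FPKM on average.

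None of the 17 further peroxisomal genes tested was called, but every P7 heart exceeded every P1 heart in 7 of them (17.3% of annotated loci) and their median log2 fold change was 0.48 (0.19 over annotated loci). The largest were Amacr (racemase of branched chains), at 0.90 with a limma adjusted p of 0.0756, and Pex5 (import receptor), at 0.80 with 0.0659. In Abcd3, which brings branched and dicarboxylic chains into the peroxisome, and in Acaca, which makes malonyl-CoA, every P7 heart lay below every P1 heart. Their log2 fold changes were -0.33 and -0.43 (limma adjusted p = 0.331 and 0.244). Acacb, which also makes malonyl-CoA, went the other way, at 7.83 FPKM in P1 and 13.6 FPKM in P7 on average. Its stages overlapped and it was not called (log2 fold change 0.81, limma adjusted p = 0.126).

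Fat tissue was looked for because Plin5, Pnpla2, Ucp3 and the lipases are also used there. Of 8 markers of white and brown adipocytes, 6 were tested. Of these, 1 was called higher in P7 (Cidea), against 7.74% of annotated loci. The summed level of all 8 was 9.92 to 19.3 FPKM in P1 and 24.1 to 43.9 FPKM in P7. Most of the sum was Cidea, at 8.22 to 15.5 FPKM in P1 and 20.6 to 24.8 FPKM in P7. Ucp1, which defines brown fat, measured 3.08 FPKM in P7 replicate 2 and 10.3 FPKM in P7 replicate 4, and at most 0.147 FPKM in the other 6 hearts. Adipoq reached 1.20 and 2.75 FPKM in the same 2 P7 hearts. In P7 replicates 1 and 3 Ucp1 was at 0 and 0.0413 FPKM. Plin5 measured 13.0 and 19.8 FPKM there, Pnpla2 48.0 and 38.5 FPKM, Ucp3 6.41 and 5.86 FPKM, and Cidea 20.6 and 23.2 FPKM. In each of these genes but Ucp1 every P7 heart lay above every P1 heart, so the same holds for any P7 heart chosen. With P7 replicates 2 and 4 left out, Slc27a1 and Pnpla2 were the 2 members still called, when 1.78% of annotated loci were called higher. The median log2 fold change of the lipid store and acyl-CoA control genes was then 1.23, against 1.18 with all hearts. The median over annotated loci rose as well, to 0.32 from 0.19. The part of fat tissue in these differences was not tested.

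Markers of other cell types were read in the same way. Of 6 fibroblast markers 4 were called higher, against 7.74% of annotated loci. The 6 markers summed to 564 to 1151 FPKM in P1 and 1520 to 1844 FPKM in P7. Against the same 7.74% of annotated loci, 1 of 8 cardiomyocyte markers, Mb, was called higher. The markers of skeletal muscle, where Ucp3 is also expressed, summed to at most 2.48 FPKM in any heart, with 5 of the 6 below 1 FPKM throughout. Liver markers, of a tissue where Cpt1a is also expressed, summed to 50.1 and 27.7 FPKM in P1 replicates 1 and 3, mostly from Alb, and to at most 8.84 FPKM in the other hearts. The part of the cell types in the differences between ages was not tested.

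Base composition moved with the calls. The longest transcripts of the 9 called members had a median of 56.9% G or C (52.4% to 59.7%), against 48.1% in the other 32 members and 49.2% over annotated loci. After each heart was corrected for its trend on GC content, 3 members were called, Slc27a1, Acsf2 and Ucp3, against 2.12% of annotated loci, and all 9 stayed positive, with a median of 0.75 for the lipid store and acyl-CoA group.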

How the data were processed

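Total RNA of 4 P1 and 4 P7 hearts was depleted of ribosomal RNA and made into libraries (ScriptSeq v2) by the authors. The deposited values are FPKM per assembled locus on GRCm38, made by the authors' provider; the aligner is not given in the sources used here. No fold changes or p-values of the authors were used. Members were matched to loci by symbol, and joined symbols were split. The 41 members, the further genes, the ratios and the marker lists were chosen with earlier results of these data known.

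The 43172 loci that reached 1 FPKM in some heart were compared as log2(FPKM + 1) with limma 3.58.1 in R 4.3.3 (lmFit, eBayes with trend, 8 hearts, no covariates) and Benjamini-Hochberg adjustment over these loci. Fold changes on this scale understate the change of weak genes. Calls needed an adjusted p under 0.05 and a 1.5-fold ratio of mean FPKM, the thresholds of the study. The 6 ratios were compared by exact permutation tests. All members are named, with values in every heart for called members and for the most abundant and most and least changed gene of each step. Some further members have them too, chosen after their values were seen. Scripts were tested on simulated data. GC content came from GENCODE M21 transcripts (lowess, span 0.3), and was known for 85.9% of annotated loci tested. Depth was estimated from the spacing of low FPKM values. Promoters are from RefSeq (GRCm38.p6). Of 41 spans, 13 hold another coding gene, among them the long spans of Acaa1a, Acot2 (121522 bases) and Ucp3 (114634 bases). In 6 spans such a gene has no locus of its own, so the value may include its fragments. A second symbol is carried by 5 loci. Hearts with the same replicate number were not treated as pairs. Figures used matplotlib 3.10.9, tables pandas 2.3.3.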

Additional observations from a re-analysis of the deposited data

Results flagged for a closer look

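In each stage, the highest and the lowest heart of each of the 41 members and of each of the 6 ratios were compared with the rest by Dixon's ratio, the gap to the nearest heart over the whole range. Of 94 groups tested 3 exceeded the 95% critical value for 4 hearts, where chance alone gives about 4.7. Acot13 measured 396 FPKM in P1 replicate 4 against 206 to 213 FPKM in the other P1 hearts (ratio 0.966). Decr1 measured 126 FPKM in P7 replicate 3 against 88.8 to 93.4 FPKM (ratio 0.878). Cd36 measured 481 FPKM in P1 replicate 4 against 372 to 389 FPKM (ratio 0.840).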

How the results depend on the processing

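Each of the 9 called genes kept a positive log2 fold change under every alternative that gave a value. Members called higher numbered 3 with GC correction (2.12% of annotated loci). They numbered 2 without both P7 replicates 2 and 4 (1.78%), an alternative chosen after seeing the data. With 1 heart left out they numbered 1 to 13: 1 without P1 replicate 2 (0.874%) and 13 without P1 replicate 4 (15.4%). Between these were 4 each without P1 replicate 3 (2.22%), without P7 replicate 1 (1.57%) and without P7 replicate 3 (1.44%). Members called lower numbered 2 with median-ratio scaling (3.47% of annotated loci called lower) or quantile normalization (3.31%). The count was 1 (Acsl4) with a filter on every heart (1.17%) or sample quality weights (0.991%). The further pathway genes called higher numbered 4 with no filter (1.85% of annotated loci) or GC correction (2.12%). They numbered 19 with the filter on every heart (19.0%) or quality weights (15.4%). Leaving out both P1 replicates 3 and 4, also chosen after seeing the data, gave 5 (4.27%). Leaving out both P7 replicates 2 and 4 gave 2 (1.78%). With 1 heart left out the count ran from 1 to 21. Dropping P1 replicate 2 gave 1 (0.874%), and dropping P1 replicate 4 gave 21 (15.4%). The count was 2 for P1 replicate 3 (2.22%), P7 replicate 1 (1.57%) and P7 replicate 3 (1.44%). It was 5 for P1 replicate 1 (4.43%), P7 replicate 2 (5.48%) and P7 replicate 4 (3.86%). Further pathway genes called lower numbered 1 with median-ratio scaling and 2 with quantile normalization. The activation median moved to -0.25 with median-ratio scaling, the lipid store median to 0.75 with GC correction, and the ratio of Hadha to Hadhb to -0.15 with GC correction. The causes were not tested.

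With the replicate number as a block, 8 members were called (all but Acot2), against 5.40% of annotated loci called higher. Same-numbered hearts correlated at -0.0188, 0.122, -0.102 and -0.0270. Such correlations cannot tell whether these hearts share more than a number. The paired differences of the ratios stay 0.69 (Cpt1b to Cpt1a), 0.78 (Acsl1 to Acsl3), 1.08 (Acsl1 to Acsl4) and 0.41 (Hadha to Hsd17b4) under the replicate block, where an exact test cannot go below 0.125. With 1 heart left out they ran from 0.58 to 0.79, 0.60 to 0.97, 0.94 to 1.22 and 0.32 to 0.47, and no p below 0.0571 is possible.

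Signs that turned belong to uncalled members. With median-ratio scaling and with quantile normalization these were Lpl (-0.15 and -0.11), Cpt1a (-0.13 and -0.16), Slc22a5 (-0.080 and -0.12), Acad9 (-0.17 and -0.20), Hadhb (-0.17 and -0.16), Etfa (-0.21 and -0.20) and Eci2 (-0.091 and -0.12). With median-ratio scaling alone they were Acadl (-0.034) and Ehhadh (-0.10), and with quantile normalization alone Slc25a20 (-0.0091) and Hadha (-0.0017). Cd36 turned to 0.014 with quality weights, 0.26 with GC correction, 0.038 without both P1 replicates 3 and 4 and 0.22 without both P7 replicates 2 and 4. Acsl5 turned to 0.024, 0.063, 0.030 and 0.042 under the same settings, Etfa to -0.028 without both P1 hearts and Hsd17b4 to 0.015 without both P7 hearts. With 1 heart left out, Cd36 ran from -0.12 to 0.084, Lpl from -0.023 to 0.23, Acsl5 from -0.17 to 0.081, Cpt1a from -0.031 to 0.30, Acad9 from -0.072 to 0.23, Hadhb from -0.049 to 0.17, Etfa from -0.075 to 0.15, Eci2 from -0.015 to 0.33 and Ehhadh from -0.028 to 0.16. Without both P7 replicates 2 and 4, Lpl, Acad9, Hadhb and Eci2 stood at 0.35, 0.25, 0.25 and 0.39.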
